A study of Saccharomyces cerevisiae with 28 samples.

Results

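The series holds 28 libraries of budding yeast, Saccharomyces cerevisiae, each either of the mRNA pieces that ribosomes shield from nuclease (footprints) or of total mRNA. The 6 libraries described here are those of the WT strain after 2 h at 36 °C, chosen by their labels as 2 cultures in SC medium (replicates 1 and 2) and 1 culture in YPA medium, each with a footprint and an mRNA library. The question is how the genes expressed and translated by WT cells differ between the 2 media. Both groups carried the same strain, labelled YWG1245 (YAJ3), grew with 2% raffinose, had 2% galactose for 30 min and then spent 2 h at 36 °C, so by label the groups differed in medium. Ribosomes were stopped with cycloheximide at harvest in each culture, and the mRNA libraries were made from rRNA-depleted, fragmented RNA. No genotype of the strain beyond its name was given in the labels, and nothing states that replicates came from separate inocula, so the spread between them may be partly technical. By common usage, which the labels do not spell out, SC is a synthetic complete medium made from defined salts, vitamins, nucleobases and amino acids. YP media are made from yeast extract and peptone. For comparison, 6 libraries of another strain, labelled 4Gts, with the same labelled sugars, temperature and time, are used in places below. They differ from the WT libraries by strain, so they are no repeat of the WT comparison.

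Yeast cells switch many genes with their nutrients. Defined media hold fixed amounts of vitamins, inositol, metals and phosphate, whereas yeast extract and peptone supply peptides and a rich mixture of small molecules. Zinc, copper, iron and phosphate uptake genes are turned on when their nutrient is scarce, the INO genes of phospholipid synthesis are repressed by inositol, and the genes of amino acid synthesis are under general control by the activator Gcn4. Translation efficiency (TE), the footprint density of a gene divided by its mRNA density, tells how many ribosomes sit on an mRNA for its abundance.

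Levels are given below as scaled RPKM, read density normalized by gene length and library depth, after the libraries of a layer were brought to the same median over genes, and differences as log2(scaled RPKM + 1) of each SC culture minus the YPA culture, which understates differences of low genes. With 2 cultures against 1 from separately normalized tables no test across media was made, since an exact permutation test could not go below p = 0.333. A gene was instead counted as higher or lower in SC where both SC cultures lay at least 2-fold to the same side of YPA. The values of the media come from separate sets of tables with unlike depth, so medium and batch cannot be told apart for any value below. SC libraries held about 14300000 and 11700000 mRNA reads and 10500000 and 5340000 footprint reads, against 2620000 mRNA and 3680000 footprint reads in YPA, as read from the steps of the values. Of 6692 genes, 371 were left out because they were at 0 in all 12 YPA libraries of the series, and 4910 had an average of at least 10 RPKM over the media in both layers. Among these kept genes, 372 lay below 10 RPKM in SC and 288 in YPA in at least 1 layer, so they were kept for the medium in which they were high.

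The tables of the media treat repeated genes differently, and this touches the largest differences. At the annotated gene lengths, and within 0.02 of a read, between 86.4% and 90.7% of the values of an SC library fell on whole reads, against 95.3% and 95.4% in the mRNA and footprint libraries of YPA. By lengths at which the YPA values were whole, 547 of the kept genes had fractions of a read in at least 4 of the 16 SC libraries of the series, as a share-out of reads among near-identical copies would give. Each of the 10 largest mRNA differences toward SC and 9 of the 10 largest footprint differences belonged to such genes, most of them reading frames without a gene name. The frame YJR028W had 1955 and 1765 scaled RPKM of mRNA in SC and was listed at 0 in YPA, and TEF1, 1 of 2 near-identical genes of elongation factor 1 alpha, had 5348 and 3836 in SC against 111 in YPA. These genes are called split-read genes below, and the threshold for them was chosen after the values were seen. The medium cannot be told apart from the counting in their differences.

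The markers of the strain and of the galactose treatment were present in all 3 cultures. TIF4631 and TIF4632 encode eIF4G, the initiation factor that bridges cap-binding and the small ribosomal subunit, with 101 and 63.6 scaled RPKM of TIF4631 mRNA in SC against 141 in YPA and 27.1 and 30.1 of TIF4632 in SC against 35.8 in YPA. GAL7, an enzyme of galactose use, stood at 3724 and 3395 in SC against 2982 in YPA, and GAL10, another, at 4116 and 5471 in SC against 3022 in YPA, so both were high in both media. UBR1, the ubiquitin ligase of the N-degron pathway, had 898 and 1558 in SC against 1681 in YPA.

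Across all kept genes, 460 were higher in SC at the mRNA level (9.37%) and 397 lower (8.09%). For footprints 317 were higher (6.46%) and 270 lower (5.5%), and for TE 604 were higher (12.3%) and 743 lower (15.1%). Without the split-read genes the counts over 4363 genes were 322 higher (7.38%) and 356 lower (8.16%) for mRNA, 194 (4.45%) and 226 (5.18%) for footprints, and 560 (12.8%) and 637 (14.6%) for TE. The split between higher and lower depended on the scaling: with the deposited RPKM unscaled, where the median gene lay -0.81 from YPA in mRNA, 172 genes were higher and 1620 lower in mRNA, and 1729 higher and 276 lower in TE. Under upper quartile scaling these were 329 and 648 in mRNA and 874 and 563 in TE. Of the 3869 kept genes with a TE in the authors' deposited tables in all 3 cultures, 610 were higher and 434 lower by those tables, against 381 higher and 576 lower by footprints over mRNA in the same genes. All differences below are therefore relative to the median kept gene, which was within 0.0059 of 0 for TE, 0.0066 for mRNA and 0.0081 for footprints.

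The SC replicates differed from each other by more in levels than in TE. Replicates 1 and 2 were at least 2-fold apart for 12.7% of genes in mRNA and 15.1% in footprints, but for 1.71% in TE. The SD over genes of the difference between replicates was 0.71 on the log2 scale for mRNA, 0.78 for footprints and 0.35 for TE. Of the genes counted as higher or lower, the nearer SC culture lay farther from YPA than the replicates lay from each other for 786 of 857 genes in mRNA, 502 of 587 in footprints and 1346 of 1347 in TE. These counts follow largely from the rule, which asks for a 2-fold gap in the nearer culture. They do not measure how sure a call is. By replicate 2 alone 875 genes were higher and 786 lower in mRNA, and by replicate 1 alone 608 and 573. The YPA spread is unknown with 1 culture.

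**Figure D1:**
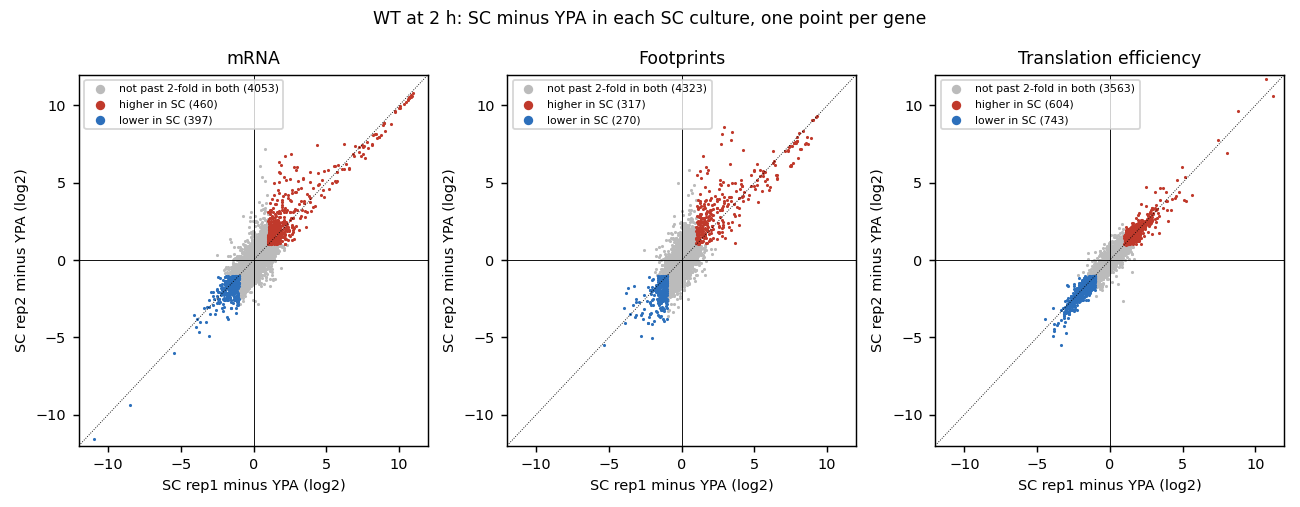
Difference between SC replicate 1 and YPA (x axis) and between SC replicate 2 and YPA (y axis) in log2 for mRNA, footprints and translation efficiency, 1 point per gene, with genes at least 2-fold from YPA in both cultures in red (higher in SC) and blue (lower in SC) and the line of equal differences dotted. Points of translation efficiency lie closest to the line, with an SD between replicates of 0.35, against 0.71 for mRNA.

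Differences in mRNA were only in part seen in footprints. Of the 460 genes with more mRNA in SC, 178 also had more footprints, which was 38.7% of those with more mRNA, beside 6.46% of all kept genes with more footprints, and 56.1% of the genes with more footprints, beside 9.37% of all with more mRNA. Split-read genes made up much of this overlap: without them 71 of 322 genes with more mRNA had more footprints, 22.05% of those with more mRNA and 36.6% of those with more footprints. Among lower genes 23 were lower in both layers, 5.79% of those lower in mRNA, near the 5.5% of all kept genes lower in footprints, and 8.52% of those lower in footprints, near the 8.09% of all lower in mRNA. In TE, 272 of the 397 genes with less mRNA were higher, beside 12.3% of all kept genes. Lower in TE were 245 of the 460 genes with more mRNA, beside 15.1% of all. The mRNA value is subtracted in TE, so genes picked by their mRNA difference are pushed to the other side in TE. Over genes, the correlation of the mRNA and footprint differences was 0.60 (Pearson's r, 4910 genes of the same libraries, which are not independent replicates), and that of the mRNA and TE differences was -0.54, a pair of measures that share the mRNA value with opposite signs.

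The inositol gene INO1 had the largest difference toward SC, in mRNA and in footprints, of any named gene without split reads. INO1, which makes inositol phosphate in the first step of inositol synthesis, had 2256 and 1084 scaled RPKM of mRNA in SC, against 10.2 in YPA. Its footprints stood at 2743 and 1201 in SC, against 5.66 in YPA, and both layers were higher in each SC culture, by 7.66 and 6.60 in mRNA and 8.69 and 7.50 in footprints on the log2 scale. INO2, an activator of INO1, had 91.8 and 83.5 in SC against 18.6 in YPA. OPI3, a methyltransferase of phosphatidylcholine synthesis, had 1091 and 764 in SC against 116 in YPA, and the inositol permease ITR1 had 809 and 354 in SC against 91.7 in YPA. The footprints of these last 2 differed less, with 439 and 277 of OPI3 in SC against 243 in YPA and 119 and 56.6 of ITR1 in SC against 67.6 in YPA, so that both were lower in TE. Of 21 inositol and phospholipid genes 9 were higher in mRNA and 0 lower, 3 were higher in footprints and 1 lower, and 8 were lower in TE and 1 higher. Over all kept genes 9.37% were higher in mRNA, 6.46% were higher in footprints and 15.1% were lower in TE.

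The zinc genes ZRT1 and ZAP1 were higher in SC in both layers. ZRT1, the high-affinity zinc transporter, had 1406 and 1912 scaled RPKM of mRNA in SC against 27.6 in YPA, and 195 and 273 of footprints in SC against 3.79 in YPA. ZAP1, the activator that answers zinc shortage, had 115 and 128 of mRNA in SC against 18.6 in YPA and 59.7 and 61.2 of footprints in SC against 4.11 in YPA. ZPS1, a Zap1 target, stood at 77.9 and 73.5 of mRNA in SC against 6.78 in YPA, and the low-affinity transporter ZRT2 at 159.9 and 144 in SC against 31.9 in YPA. The vacuolar transporter ZRT3 had more mRNA, 223 and 312 in SC against 50.9 in YPA, with footprints of 17.4 and 23.9 in SC against 20.3 in YPA. Both SC cultures were at least 2-fold above YPA in each of these mRNA values. ZRC1, which stores zinc in the vacuole, had more mRNA, 207 and 175 in SC against 79.7 in YPA, and fewer footprints, 12.5 and 12.3 in SC against 29.2 in YPA.

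Genes of copper uptake, and 2 phosphate genes, were lower in SC. CTR3, a copper transporter of the plasma membrane, had 38.9 and 62.5 scaled RPKM of mRNA in SC against 269 in YPA, and 51.7 and 70.4 of footprints in SC against 524 in YPA. The other copper transporter of that membrane, CTR1, was past the 2-fold line in footprints, at 49.3 and 65.6 in SC against 432 in YPA, while its mRNA was 97.6 and 136 in SC against 229 in YPA. Of the 20 copper and zinc genes 10 were higher and 1 lower in mRNA, and 5 higher and 4 lower in footprints. PHO84, the high-affinity phosphate transporter, had 28.4 and 16.9 of mRNA in SC against 284 in YPA and 3.11 and 2.75 of footprints in SC against 167 in YPA, a footprint difference of -5.35 and -5.48 in the 2 cultures. SPL2, which lowers low-affinity phosphate uptake, had 3.13 and 1.18 of mRNA in SC against 53.9 in YPA. Its footprints were 4.98 and 5.23 in SC against 67.6 in YPA, so that both SC cultures lay far below YPA for both genes and in both layers. The phosphate list as a whole had 16 of 21 genes kept, 1 higher and 2 lower in mRNA and 5 lower in footprints. Among all kept genes 9.37% were higher and 8.09% lower in mRNA, and 6.46% higher and 5.5% lower in footprints.

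Most iron genes were lower in TE in SC. FET3, the multicopper oxidase of iron uptake, had 664 and 728 scaled RPKM of mRNA in SC against 473 in YPA, but 46.8 and 34.3 of footprints in SC against 414 in YPA. SIT1, a transporter of iron-binding siderophores, had 7.05 and 8.31 of footprints in SC against 60.3 in YPA, and another, ENB1, had 6.36 and 5.13 in SC against 38.1 in YPA, while the mRNA of neither was past the line. ARN1, also such a transporter, had more mRNA, 284 and 537 in SC against 102 in YPA, without more footprints, 32 and 53.8 in SC against 58.1 in YPA. ATX1, a cytosolic copper chaperone, was the 1 member higher in TE and lower in mRNA, with TE differences of 1.81 and 1.87. The list median was 0.74 in mRNA, -0.81 in footprints and -1.72 in TE, and that in footprints was 0.18 over the members left by a filter at 50 RPKM. Of 22 iron regulon genes kept of 32, 3 were higher and 1 lower in mRNA, 7 lower in footprints, and 14 lower and 1 higher in TE, where 15.1% of all kept genes were lower.

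Biotin genes were higher in SC. BIO3, an enzyme of biotin synthesis, had 58.4 and 86.8 scaled RPKM of mRNA in SC against 5.3 in YPA. BIO4, which acts in the next step, had 35.1 and 46.2 in SC against 11.3 in YPA. BIO4 footprints were 89 and 96.2 in SC against 4.95 in YPA, where the YPA value came from 13 reads. The biotin transporter VHT1 had 145 and 176 of mRNA in SC against 35.5 in YPA, and 4 of the 5 biotin genes kept were higher in mRNA. THI4, an enzyme of thiamine thiazole synthesis, had 28.3 and 83.3 in SC against 2.98 in YPA, where the YPA value came from 11 reads. The thiamine and pyridoxine list had 13 of 20 genes higher in mRNA, but 12 of the 20 were split-read genes, and without these 3 of 8 were higher. BNA2, which opens NAD synthesis from tryptophan, had 181 and 175 of mRNA in SC against 40.9 in YPA and 281 and 315 of footprints in SC against 66.7 in YPA, 1 of 2 genes higher in mRNA among 13 nicotinic acid and NAD genes. Among all kept genes 9.37% were higher in mRNA.

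**Figure D2:**
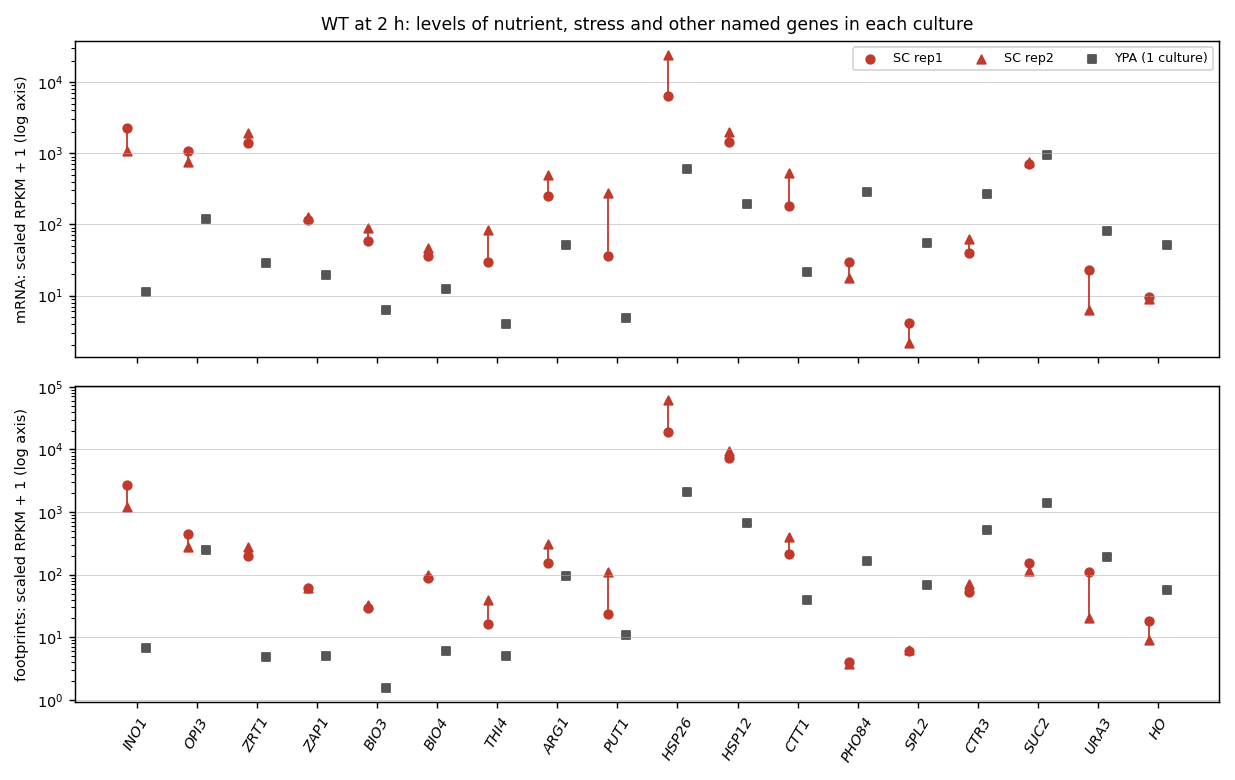
Levels (scaled RPKM + 1, log axis) of 18 named genes in SC replicate 1 (circle), SC replicate 2 (triangle) and the YPA culture (square), for mRNA above and footprints below. From INO1 to CTT1 the SC mRNA values lie above YPA, and from PHO84 to HO they lie below it, with the widest gap at INO1, 2256 and 1084 in SC against 10.2 in YPA.

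Among genes of amino acid synthesis, several for arginine had more mRNA in SC. ARG1, argininosuccinate synthase, had 252 and 488 scaled RPKM of mRNA in SC against 50.8 in YPA. ARG3, ornithine carbamoyltransferase, had 104 and 127 in SC against 27.1 in YPA, and CPA1, which helps supply its carbamoyl phosphate, had 631 and 1053 in SC against 149 in YPA. In all, 5 of the 10 arginine genes were higher in mRNA, with list medians of 1.45 in replicate 1 and 0.89 in replicate 2, and 2 in footprints. LEU2, of leucine synthesis, had 132 and 273 of mRNA in SC against 39 in YPA. The wider list of Gcn4 targets and amino acid synthesis had 11 of 56 genes higher and none lower in mRNA, a median of 0.35, and 20 lower in TE with a median of -0.85. Lysine genes had 2 of 9 higher in mRNA, both split-read genes, and the leucine, isoleucine and valine genes had 3 of 12 higher in mRNA and 8 lower in TE. GCN4 itself had 1579 and 1592 of mRNA in SC against 905 in YPA, while its footprints were 116 and 26.5 in SC against 44.4 in YPA, so the SC replicates lay on either side of YPA. The 17 genes with regulatory upstream frames, a list that holds GCN4, CPA1 and INO2, had 4 higher and 1 lower in mRNA and 2 lower in TE. Over all kept genes 9.37% were higher and 8.09% lower in mRNA, and 15.1% lower in TE.

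Among nitrogen genes, PUT1 and GAP1 differed widely between the SC replicates. PUT1, proline oxidase, had 35.5 and 278 scaled RPKM of mRNA in SC against 3.87 in YPA, and GAP1, the general amino acid permease, had 47.7 and 192 in SC against 23.4 in YPA. For both genes replicate 2 was above replicate 1, and YPA was the lowest. GAT1, an activator of nitrogen-repressed genes, had 125 and 188 in SC against 38.8 in YPA, and MEP3, an ammonium permease, had 68 and 82.9 in SC against 30.6 in YPA. PUT4, the proline permease, was lower in footprints, at 5.12 and 9.91 in SC against 92.9 in YPA. Of 16 nitrogen-repressed genes kept of 29, 4 were higher and none lower in mRNA, and 7 were lower in TE. Among all kept genes 9.37% were higher in mRNA and 15.1% lower in TE. In the methionine and sulfur list 17 of 31 genes were kept, 1 of them (MET13) higher in mRNA and 6 lower in TE, and the replicates disagreed for MET17, with 144 and 34.6 of mRNA in SC against 99.5 in YPA.

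Most purine genes had a TE below YPA, with 6 of 18 past the line, and the named nucleotide genes differed in mRNA in either direction. ADE17, of purine synthesis, had 98.2 and 46.6 scaled RPKM of mRNA in SC against 18.2 in YPA, 1 of 2 higher in mRNA among 18 purine genes. In TE 6 of the 18 purine genes were lower and none higher, with a median of -0.90 and 17 of the 18 below 0, beside 15.1% of all kept genes lower. URA3, of pyrimidine synthesis, was lower in SC, with 21.6 and 5.38 of mRNA in SC against 81.1 in YPA, the widest gap toward YPA among the 10 pyrimidine genes kept. URA10, another gene of that pathway, had 86.3 and 244 footprints in SC against 15.1 in YPA. In the pyrimidine list 1 gene was higher and 1 lower in mRNA, beside 9.37% and 8.09% of all kept genes.

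Many carbon genes carried split reads. In all, 14 of 26 glycolysis and ethanol genes were higher in mRNA and 14 lower in TE, and of the 13 members that were not split-read genes 6 were higher in mRNA. CDC19, pyruvate kinase, which had no split reads, had 6793 and 5617 scaled RPKM of mRNA in SC against 1652 in YPA and 7032 and 4884 of footprints in SC against 5601 in YPA. All 4 genes higher in mRNA among 8 hexose transport genes were split-read genes. SUC2, invertase, had 708 and 746 of mRNA in SC against 940.4 in YPA, and fewer footprints, 152 and 112 in SC against 1415 in YPA. In the galactose pathway 0 of 11 genes were higher and 0 lower in mRNA, and GAL2, the galactose permease and a split-read gene, was lower in footprints, at 518 and 539.7 in SC against 2180 in YPA. The gluconeogenesis, glyoxylate and acetate list had 3 of 23 genes higher in mRNA, with medians of 0.47 in replicate 1 and 1.68 in replicate 2. CIT2, the peroxisomal citrate synthase, had 310.3 and 456 of mRNA in SC against 80.7 in YPA, 1 of 2 higher in mRNA among 22 genes of the TCA list, in which 9 were lower in TE. ALD6, the cytosolic acetaldehyde dehydrogenase, was past the line in footprints, at 127 and 157 in SC against 764 in YPA, and JEN1, the lactate permease, at 8.12 and 33.9 in SC against 119 in YPA. Of 41 respiratory chain genes 1 was higher and 2 lower in mRNA. Over all kept genes 9.37% were higher and 8.09% lower in mRNA, and 15.1% lower in TE. The counts higher in mRNA of the gluconeogenesis and TCA lists lie near that share.

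Many stress genes were higher in SC, most of those named by more in replicate 2. HSP26, a small heat shock protein, had 6322 and 23930 scaled RPKM of mRNA in SC against 602 in YPA, and 18720 and 60740 of footprints in SC against 2069 in YPA. HSP12, a membrane-protecting stress protein, had 1417 and 1970 of mRNA in SC against 195 in YPA, and CTT1, the cytosolic catalase, had 180.4 and 525 in SC against 20.4 in YPA. HSP30, a plasma membrane protein induced by stress, had 189.7 and 3591 in SC against 30.6 in YPA, with replicate 2 far above replicate 1. HSP104, the disaggregase, was past the line in footprints, 2623 and 3649 in SC against 1155 in YPA, and not in mRNA, 855 and 1428 in SC against 600.3 in YPA. The general stress list had 16 of 36 genes higher and none lower in mRNA, with a median of 1.17, and the heat shock and chaperone list 11 of 30, 5 of 18 without split-read genes. SIP18, a protein of desiccation tolerance, had 153 and 7965 of footprints in SC against 19.4 in YPA, again highest in replicate 2. The peroxiredoxin AHP1 had 1723 and 4023 of mRNA in SC against 484 in YPA and another peroxiredoxin, TSA2, had 75.4 and 189 in SC against 25.1 in YPA. In the oxidative stress list 7 of 19 genes were higher and none lower in mRNA. YRO2, a stress-induced membrane protein, had 732 and 2716 of mRNA in SC against 116 in YPA. In the weak acid and plasma membrane stress list 8 of 19 genes were higher in mRNA and 11 lower in TE. Over all kept genes 9.37% were higher in mRNA and 15.1% lower in TE. All cultures were at the same labelled temperature, and culture density at harvest was not given in the sources used here.

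Many ribosomal protein genes were lower in SC. The cytosolic ones had 24 of 54 members lower in footprints and 9 in mRNA, with mRNA medians of -0.38 in replicate 1 and -1.55 in replicate 2. In that list 2 genes were higher in mRNA and 1 in footprints, all split-read genes, as were 37 of the 54 members. Of the 17 other members 10 were lower in footprints and 4 in mRNA. In 4Gts, the other strain of the series, 0 members were lower and 2 higher in footprints, with a median of -0.74. There 1 was lower and 2 higher in mRNA, with a median of -0.19. RPL3, a large-subunit protein from 1 gene, had 1723 and 718 scaled RPKM of mRNA in SC against 1961 in YPA and 1921 and 814 of footprints in SC against 3907 in YPA, so its footprints were past the line and its mRNA was not. Mitochondrial ribosomal protein genes had 27 of 67 lower and none higher in mRNA, with medians of -1.02 and -0.92, and 10 lower in footprints. For ribosome biogenesis, 15 of 60 genes were lower and none higher in mRNA, 2 were lower in footprints, and 11 were higher in TE. Among all kept genes 8.09% were lower in mRNA, 5.5% lower in footprints and 12.3% higher in TE.

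**Figure D3:**
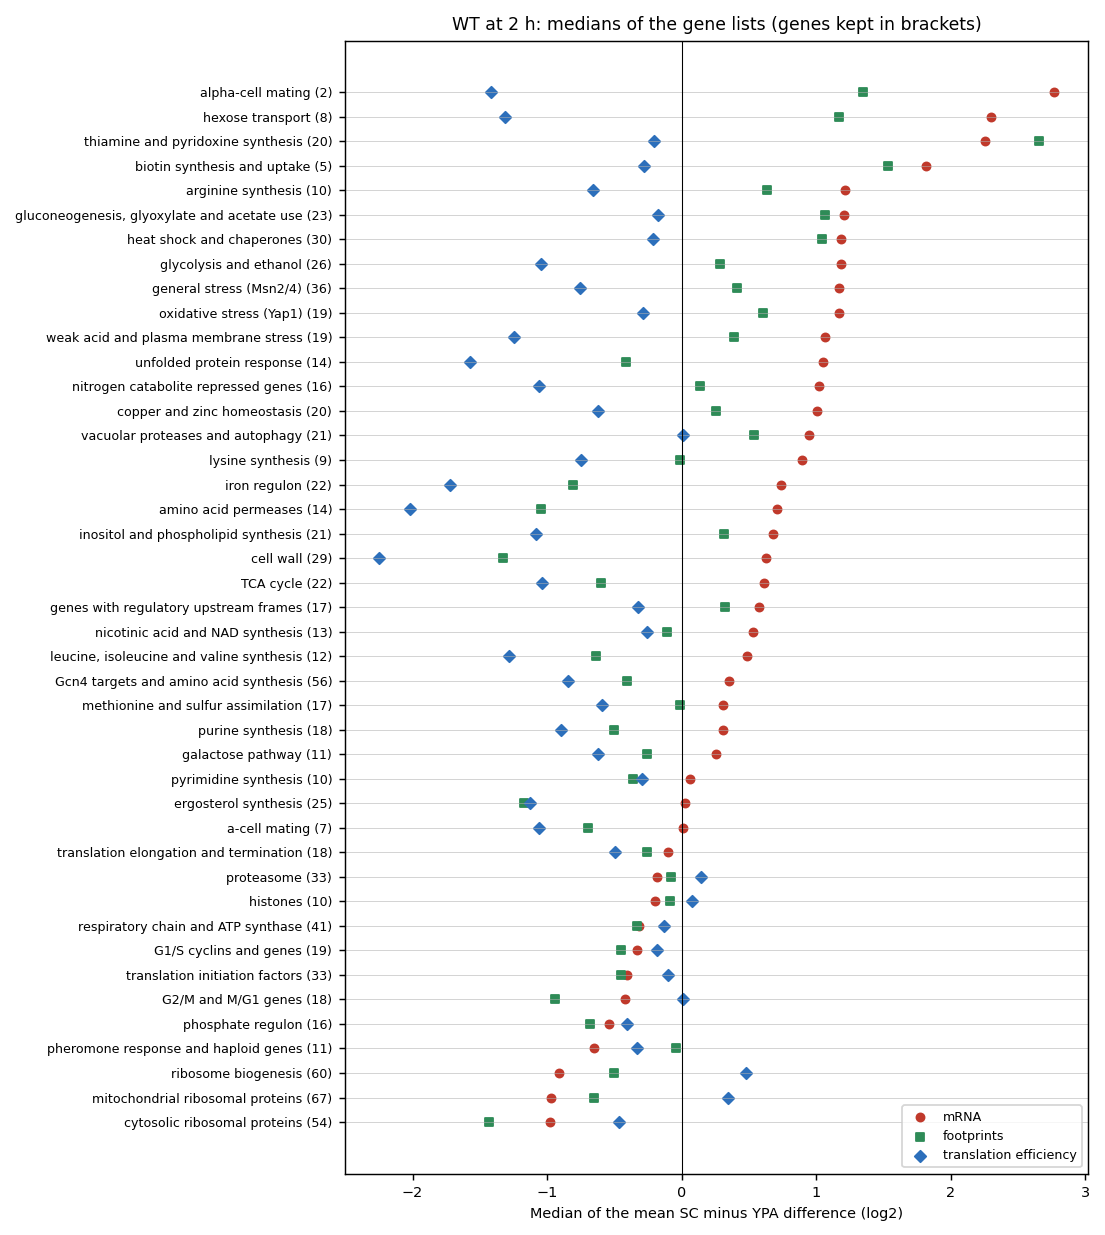
Median over the kept genes of 43 lists (number of genes in brackets) of the mean SC minus YPA difference in log2, for mRNA (red circles), footprints (green squares) and translation efficiency (blue diamonds), ordered by mRNA. Medians of translation efficiency lie left of 0 for the permease, cell wall, iron and unfolded protein lists and right of 0 for ribosome biogenesis (0.48) and mitochondrial ribosomal proteins (0.34).

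Among the genes lowest in mRNA in SC were several of ribosome assembly whose footprints were not lower. CGR1, of ribosomal RNA processing, had 2.34 and 1.77 scaled RPKM of mRNA in SC against 42.8 in YPA, and 101 and 65.3 of footprints in SC against 48 in YPA. EFG1, of the same process, had 5.85 and 6.19 of mRNA in SC against 101 in YPA and 76.3 and 60.4 of footprints in SC against 48 in YPA. RRP14, likewise a nucleolar protein, had 1.58 and 2.18 of mRNA in SC against 26.1 in YPA and 53.2 and 55.1 of footprints in SC against 57.2 in YPA. None of the 3 was past the line in footprints, while their TE differences were 4.77 and 4.42, 4.56 and 4.16 and 3.29 and 3.04 in replicates 1 and 2. NOP15, of large-subunit assembly, had 24.7 and 15.5 of mRNA in SC against 151 in YPA and 159 and 99.3 of footprints in SC against 168 in YPA. MRPS17, of the mitochondrial small subunit, had 22.2 and 25.2 of mRNA in SC against 129 in YPA and 204 and 238 of footprints in SC against 229.8 in YPA. The prefoldin subunit PFD1 had 25.1 and 14.4 of mRNA in SC against 89.8 in YPA and 173 and 109.7 of footprints in SC against 138 in YPA. For each of these genes the mRNA values of both SC cultures lay below YPA by more than 2-fold, and the mRNA value in YPA rested on 56 reads for CGR1 and 129 for RRP14. In SC the mRNA values of CGR1, EFG1 and RRP14 were all below 10 scaled RPKM. The size of their TE differences therefore rests on low mRNA values in SC.

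Gene length moved with these values. Of the 397 genes lower in mRNA, 161 lay in the shortest of 5 equal length groups, up to 591 nt of counted length, and 39 in the longest. The median mRNA difference was -0.30 in the shortest group and 0.15 in group 4, and the median TE difference 0.29 in the shortest and -0.20 in group 4. Footprint medians stayed between -0.04 and 0.03 in all 5 groups. In 4Gts the median mRNA difference of the shortest group was 0.07. The part of library preparation in this was not tested. With the differences centred on the median of their length group, an alternative added after the values were seen, 374 genes were lower and 461 higher in mRNA.

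**Figure D4:**
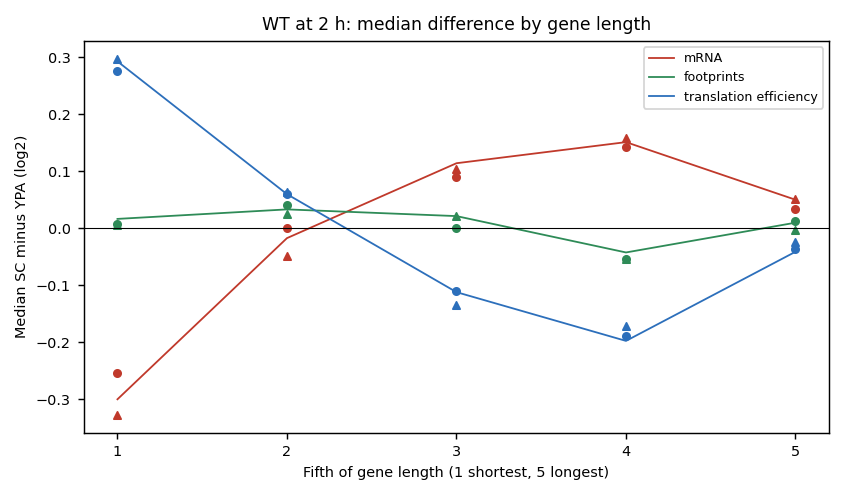
Median SC minus YPA difference in log2 (y axis) over the genes of 5 equal groups by gene length (x axis, about 981 genes each), with lines for the mean of both SC cultures, circles for replicate 1 and triangles for replicate 2. The shortest genes have the lowest mRNA median (-0.30) and the highest median of translation efficiency (0.29), while footprints stay near 0.

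Lists of membrane and cell wall proteins had the lowest medians of TE. All 14 amino acid permeases kept of 20 were lower in TE, with a median of -2.02, against 0.0059 over all kept genes, while 3 were higher in mRNA. CAN1, the arginine permease, had 137 and 132 scaled RPKM of mRNA in SC against 61.4 in YPA but 15.1 and 11.8 of footprints in SC against 30 in YPA, and DIP5, the permease of acidic amino acids, had 21.2 and 7.77 footprints in SC against 59.7 in YPA. In the cell wall list 23 of 29 genes were lower in TE and 15 in footprints, beside 15.1% and 5.5% of all kept genes. GAS1, a glucan-remodelling enzyme of the wall, had 897 and 684 of mRNA in SC against 478 in YPA and 100.2 and 39.2 of footprints in SC against 451 in YPA. The 1 gene of that list higher in TE was MLP1, whose RefSeq symbol belongs to a protein of the nuclear pore. SRL1, a mannoprotein of the wall, had TE differences of -3.82 and -4.16 in replicates 1 and 2, and MSB2, a signalling mucin, of -3.58 and -4.09, both among the 10 genes lowest in TE.

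Several genes of the endoplasmic reticulum and of protein glycosylation were also lower in TE. PDI1, the disulfide isomerase of the endoplasmic reticulum, had 2936 and 2051 scaled RPKM of mRNA in SC against 461 in YPA, and 560.1 and 273 of footprints in SC against 914 in YPA. SEC61, the translocation channel, had 422 and 254 of mRNA in SC against 118 in YPA and 64.2 and 31.4 of footprints in SC against 148 in YPA. In both genes mRNA was higher and TE lower in each SC culture, while the footprints of PDI1 lay below YPA without passing the line. The unfolded protein response list had 4 of 14 genes higher in mRNA and 8 lower in TE. KAR2, the Hsp70 of the endoplasmic reticulum and a split-read gene, had 3638 and 2303 of mRNA in SC against 542 in YPA and 443 and 221 of footprints in SC against 407 in YPA. The protein mannosyltransferase PMT2 had TE differences of -3.12 and -3.49, its relative PMT3 of -3.36 and -3.25, and GPI16, of the enzyme that attaches GPI anchors, of -3.06 and -3.29. In lists added after the values were seen, 16 of 28 glycosylation genes, 9 of 14 GPI anchor genes and 6 of 15 translocation genes were lower in TE, where 15.1% of all kept genes were. PRC1, carboxypeptidase Y of the vacuole, had 776 and 749.5 of mRNA in SC against 249.8 in YPA and 127 and 105 of footprints in SC against 366 in YPA, and 5 of 21 genes of vacuolar proteases and autophagy were lower in TE and 2 higher.

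The 2 sectors of the vacuolar proton pump, 1 in the membrane and 1 in the cytosol, gave unlike counts in TE. For this pump, 6 of 8 membrane-sector genes were lower in TE, with a median of -1.40, and 0 of 8 cytosolic-sector genes were, with a median of -0.14. Medians of the membrane and cytosolic sectors were 0.39 and -0.55 in mRNA. In footprints they were -1.04 and -0.65, below YPA in both sectors, so the sectors differed in mRNA as well. VMA11, a proteolipid of the membrane ring, had a TE difference of -1.78 and -1.51, and VMA10, of the cytosolic stalk, 1.46 and 1.42. These lists were chosen after the values were seen and the difference between them was not tested. Of the COPII and COPI coat genes, soluble proteins that bud vesicles, 2 of 16 were lower in TE, near the 15.1% of all kept genes, with a median of -0.67. Ergosterol synthesis, largely by enzymes of membranes, had 10 of 25 genes lower in footprints and 13 in TE, with none past the line in mRNA. Of all kept genes 5.5% were lower in footprints and 15.1% in TE. HMG1, the sterol pathway's reductase, had 112 and 73.8 of mRNA in SC against 89.3 in YPA and 8.14 and 4.4 of footprints in SC against 39 in YPA. Chaperonin and prefoldin genes, also an added list, had 4 higher and 1 lower of 14 in TE, beside 12.3% and 15.1% of all kept genes.

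**Figure D5:**
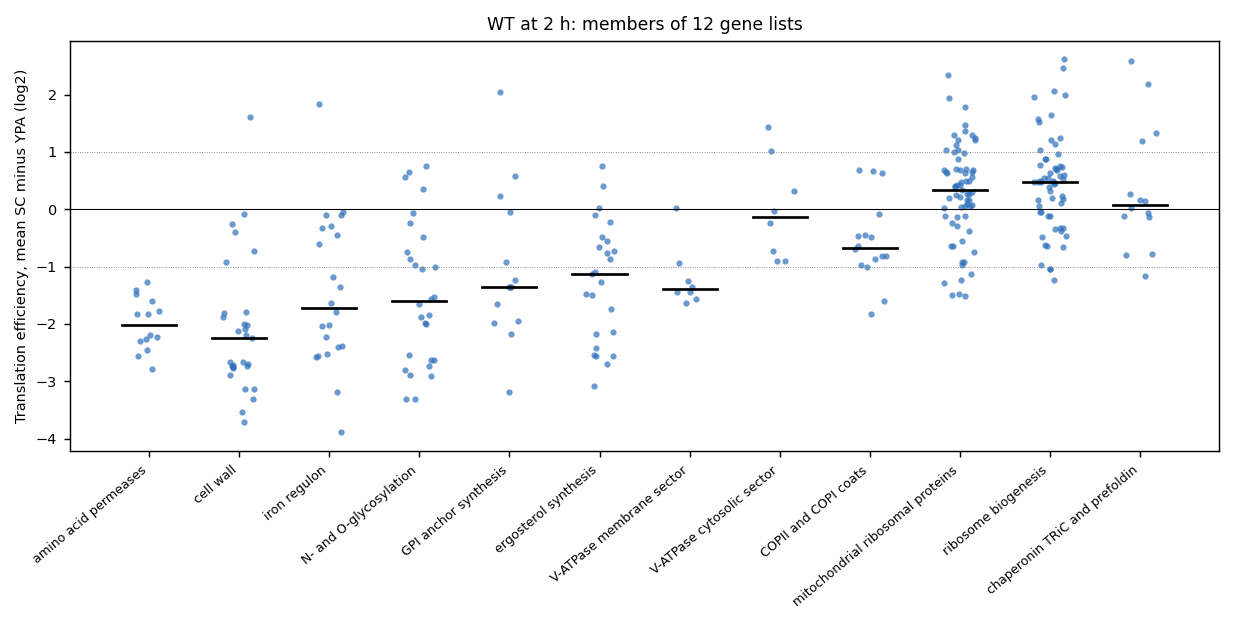
Mean SC minus YPA difference of translation efficiency in log2 (y axis) for each kept member of 12 gene lists (x axis), 1 point per gene, with the list median as a bar and the 2-fold line dotted. The permease members all lie below -1, and the medians of the membrane and cytosolic sectors of the vacuolar pump are -1.40 and -0.14.

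Of 3 mitochondrial genome transcripts kept, an added list, 2 were lower in mRNA, 2 higher in footprints and 3 higher in TE, with few footprint reads in YPA. Among all kept genes 8.09% were lower in mRNA, 6.46% higher in footprints and 12.3% higher in TE. In 4Gts 2 of the 3 were lower in mRNA, 0 higher in footprints and 1 higher in TE. Their median differences in footprints and TE were 1.64 and 3.825 in WT, and 0.19 and 1.265 in 4Gts. OLI1, a subunit of ATP synthase, had 2483 and 1675 scaled RPKM of mRNA in SC against 9264 in YPA and 51.4 and 33.9 of footprints in SC against 12.7 in YPA, where the YPA value came from 10 reads. ATP8, of the same enzyme, had 91.8 and 73.1 of mRNA in SC against 1473 in YPA. COX2, of cytochrome oxidase, had 2391 and 2778 in SC against 4538 in YPA and was not past the line in mRNA. The frame Q0182, which has no entry in the RefSeq table used for names, had the largest difference toward YPA in mRNA of all kept genes, at 12.3 and 7.86 in SC against 27230 in YPA. The other 5 genes of the list did not pass the filter on low values.

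In mRNA, counts of initiation factor genes past the line were near those of all kept genes. Of 33 such genes 3 were higher and 2 lower in mRNA, beside 9.37% and 8.09% of all kept genes. In footprints 3 were higher and none lower, beside 6.46% and 5.5% of all, where TIF1 and TIF2, the copies of eIF4A, are split-read genes. In TE 3 were higher and 2 lower, beside 12.3% and 15.1% of all. TIF11, which encodes eIF1A, had 103 and 78.9 scaled RPKM of mRNA in SC against 349 in YPA with 726 and 514 of footprints in SC against 784 in YPA. The poly(A)-binding protein gene PAB1 had 456 and 326 of mRNA in SC against 396 in YPA. Of 18 elongation and termination genes 4 were higher and 1 lower in mRNA and 6 higher and 2 lower in footprints, beside the same shares of all kept genes. All those higher in either layer were among the 10 split-read genes of the list. DOM34, a factor that frees stalled ribosomes, was lower in mRNA, at 26.1 and 19.4 in SC against 64.3 in YPA. Of 18 aminoacyl-tRNA synthetase genes, an added list, 1 was lower in mRNA. In the proteasome list 3 of 33 genes were lower and none higher in mRNA, near the 8.09% of all kept genes that were lower, and none was past the line in footprints. HAC1, the activator of the unfolded protein response and a split-read gene, had 1773 and 602 footprints in SC against 360.2 in YPA.

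Most cell cycle and mating genes were not past the line. CLN3, the cyclin that starts the cycle, had 235 and 354 scaled RPKM of mRNA in SC against 85 in YPA, the 1 gene past the line in mRNA among 19 G1/S genes. Of 18 genes of G2/M and M/G1 1 was lower in mRNA, with medians of 0.05 in replicate 1 and -1.04 in replicate 2. CTS1, the chitinase of cell separation, had 524 and 99.7 in SC against 238 in YPA, so that YPA lay between the replicates. Among 10 histone genes kept, 1 was lower in mRNA, a split-read gene. Markers of a cells were present in every culture: STE2, the receptor for alpha factor, had 573 and 121 in SC against 394 in YPA, and the a-factor gene MFA1 2514 and 417 in SC against 992 in YPA. For both, replicate 1 was the highest and replicate 2 the lowest. None of 7 a-cell genes kept was past the line in mRNA, and 3 were lower in footprints. Of the alpha-cell markers, MF(ALPHA)1 had 35 and 99 in SC against 3.83 in YPA and STE3, the receptor for a factor, 27.6 and 41.9 in SC against 4.48 in YPA, while SAG1, an agglutinin, had 17.3 and 23.2 in SC against 7.12 in YPA, so each was higher in both SC cultures. STE3 and SAG1 did not pass the filter on low values. Of 5 alpha-cell genes 2 were kept, both higher in mRNA, and 1 was left out as at 0 in all YPA libraries. MF(ALPHA)1 passed the filter in mRNA only through its SC values, so this count follows in part from the filter. In the pheromone and haploid list 1 of 11 genes was lower in mRNA. Over all kept genes 9.37% were higher and 8.09% lower in mRNA, and 5.5% lower in footprints. HO, the mating-type endonuclease, chosen after its values were seen, had 8.63 and 7.93 of mRNA in SC against 49.7 in YPA.

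The same comparison was also made in libraries of the other strain. In the strain labelled 4Gts, YWG1246 (YAJ41), at 2 h and 36 °C, with 2 SC cultures and 1 YPA culture of the same sets, 16.7% of genes were higher and 14.4% lower in mRNA, 11.1% and 5.17% in footprints and 17% and 17.7% in TE. Of the genes higher in mRNA in WT, 386 were also higher in 4Gts, 83.9% of the WT genes and 47.1% of those of 4Gts, and of the lower ones 286, 72% and 40.4%. In TE 468 genes were higher in both strains, 77.5% of WT and 55.9% of 4Gts, and 607 lower, 81.7% and 70%. In footprints the shared counts were 246 higher, 77.6% and 45.2%, and 147 lower, 54.4% and 57.9%. YGR174W-A in mRNA and YEL008C-A in TE, frames without a gene name in the files, were past the line to opposite sides in the 2 strains, and both are named after their values were seen. These libraries share the medium and the set of tables with the WT libraries, so batch moves with medium there too.

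Other stages of WT cells were measured too. By label the YPA cultures before the shift and at 0 h were at 25 °C, and that before the shift had no galactose. All SC cultures were at 36 °C after galactose, so temperature differs along with medium for these stages. Against the YPA cultures before the shift, at 0 h and at 2 h, the 4 SC values at 2 h and 8 h did not overlap the YPA values for 96.1% of the genes higher and 85.1% of those lower in mRNA, where 25.2% and 23.6% of all kept genes did not overlap in that direction. For TE these were 97.2% and 98.7%, beside 33.9% and 33.8% of all kept genes. The 2 h libraries are part of both counts. The genes were picked by a 2-fold gap between these same libraries, so their lack of overlap follows in part from that choice. Scaled over these 7 WT libraries together, INO1 mRNA was 2339 and 1140 in SC at 2 h and 2266 and 1118 at 8 h, against 6.26, 11.3 and 10.6 in YPA before the shift, at 0 h and at 2 h. PHO84 mRNA was 29.5 and 17.7 in SC at 2 h and 40.1 and 14 at 8 h, against 849, 686 and 296 in YPA. HSP26 mRNA was 6556 and 25160 in SC at 2 h and 9636 and 29330 at 8 h, against 10.6, 52.7 and 627 in YPA. FET3 footprints were 45.5 and 33.4 in SC at 2 h and 37.8 and 19.8 at 8 h, against 795, 659.8 and 399 in YPA. For all 4 genes each SC value lay clear of each YPA value at all stages, and for HSP26 the YPA values themselves spanned a wide range over the stages.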

How the data were processed

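Footprints and mRNA were measured in 6 WT libraries. The authors deposited RPKM per gene and, in separate tables, TE as a ratio of footprints to mRNA. Per the submitters' processing notes, TopHat, DESeq and the build sacCer3 were used, whose roles are not stated there. The deposited TE ratio was the RPKM quotient in SC and 1.46 times the quotient in YPA, so it served as an alternative only. Reads behind a value were recovered from the steps of the deposited RPKM values. At 10 RPKM and 1 kb the counting error was between 8.37% and 19.5% over the 6 libraries.

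Libraries of a layer were scaled by the median ratio over the kept genes, values were taken as log2(scaled RPKM + 1), and TE as footprints minus mRNA on that scale, with no test across media (Python 3.11.15, pandas 2.3.3, numpy 2.4.6). The tally was tested on simulated data. Kept genes had an average of at least 10 RPKM over the SC mean and YPA in both layers. Named genes were, per measure and direction, the 10 with the largest difference in the nearer SC culture, up to 4 members past the line per list, otherwise up to 2 of its highest in mRNA as values, and 22 preset genes. Names came from the files and RefSeq, with an entry for 6008 of 6692 IDs. The members and the 43 gene lists were chosen with earlier results of these data known, and 9 more lists after the values were seen. Alternatives changed the pseudocount, filter, scaling, replicates, fold, source of TE and the genes compared.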

Additional observations from a re-analysis of the deposited data

Results flagged for a closer look

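For the genes given here both SC cultures lay to one side of YPA in WT and both to the other side in 4Gts, the strain that shares the media. The mean difference of ADE17 mRNA was 1.84 in WT and -1.09 in 4Gts, and that of URA3 mRNA was -2.77 in WT and 0.178 in 4Gts. The mean difference of YGR174W-A mRNA was -2.5 in WT and 2.66 in 4Gts, and its WT value in YPA rested on 12 reads. In TE, the mean difference of YEL008C-A was 1.625 in WT and -1.709 in 4Gts. In footprints the median of the TCA cycle list was -0.603 in WT and 0.348 in 4Gts, on the same side of 0 for both SC cultures within each strain. None of these differences between strains was tested.

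Among the genes left out because they were at 0 in every YPA library, 83 had an average SC mRNA of at least 10 RPKM, and the comparisons of the report do not use them. With such genes kept in where they passed the filter in both layers, 502 of 4952 genes were higher in mRNA. CUP1-1, 1 of the 2 copper metallothionein copies, was listed at 918.6 and 2908 RPKM of mRNA in SC, as deposited and without scaling. The values of CUP1-2 were the same.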

How the results depend on the processing

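No paired analysis was possible because 1 YPA culture stood against 2 SC cultures, and the labels link neither of these with it. Counts are given as higher and lower in SC. With a filter at 50 RPKM they were 250 and 207 in mRNA, 180 and 88 in footprints and 284 and 284 in TE, over 2155 genes. With no filter on low values 700 were higher in mRNA and 563 in footprints. Without scaling they were 172 and 1620 in mRNA and 1729 and 276 in TE, and under upper quartile scaling 648 were lower in mRNA. At 1.5-fold they were 926 and 872 in mRNA, 614 and 668 in footprints and 1141 and 1225 in TE, and at 4-fold 148 and 46, 145 and 33, and 126 and 189. Over the 3869 genes with a deposited TE, the authors' deposited TE tables gave 434 lower in TE and footprints over mRNA gave 381 higher and 576 lower, an alternative added after the values were seen, and without split-read genes 194 were higher in footprints. With 1 SC replicate left out the counts lay between 608 and 875 higher and between 573 and 786 lower in mRNA, between 385 and 753 higher and between 359 and 761 lower in footprints, and between 731 and 774 higher and between 836 and 915 lower in TE, in each case most without replicate 1. These rises follow from asking 1 culture, not 2, to be past the line.

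Of the 52 gene lists, 28 had a median of at least 0.5 in size in footprints, 15 with the filter at 50 RPKM, and between 18 without SC replicate 2 and 37 without SC replicate 1. In mRNA that number was between 33 and 35 and in TE between 30 and 31 with 1 SC replicate left out. Without scaling the medians of 9 lists changed sign: in TE arginine synthesis to 0.084, lysine synthesis to 0.0050, methionine and sulfur to 0.15, copper and zinc to 0.13, galactose to 0.14 and the COPII and COPI coats to 0.087, and in mRNA amino acid permeases to -0.12, inositol and phospholipids to -0.14 and upstream frames to -0.25. With the filter at 50 RPKM the iron regulon changed sign in footprints to 0.18. Of 185 differences past the line of genes named in the text, 156 were still past it without scaling, 176 under quantile normalization and 178 under upper quartile scaling, and none changed sign under those settings. The depth of the YPA libraries limits the low values most.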
